A study of Mus musculus with 3 samples.

Results

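The 6 genes described here control where T cells travel: Ccr7, S1pr1, S1pr4, Cd69, Rgs1 and Rgs2. They were chosen by symbol, and all 6 were found among the 32285 gene rows of the deposited matrices of kidney and spleen. The study compared sorted CD4+ T cells of lupus-prone MRL/lpr mice with and without the histone methyltransferase Ezh2. The WT mice carried loxP-flanked Ezh2 (Ezh2fl/fl) and no Cre, and the KO mice carried the same floxed alleles and iCD4-Cre, an inducible Cre driven by the Cd4 promoter. Both groups received tamoxifen by gavage at 300 mg/kg on 3 days of a week, every other week, from 10 weeks (preventative) or 14 weeks (therapeutic) to 24 weeks of age. The start given to each mouse is not in the labels. Before that, the floxed strain had been backcrossed to MRL/lpr for 6 generations. Cells could be traced to 2 KO mice (KO1 and KO2) and 3 WT mice (WT1 to WT3), with both organs of each, which gave 10 sums of unique molecular identifier (UMI) counts. The deposited tag key lists tag sequences and the matrices list tag numbers, and no file used here pairs them. Tags 1 to 10 were taken in the order of the first-day key, which matches the organ of each matrix, so every mouse and genotype name below rests on that order. Values by mouse are given in the order of these numbers. Antibodies to CD3e, TCR beta, CD4 and CD8a were used for the sort, and kidneys were digested with enzymes in a heated dissociator while spleens were mashed through a strainer.

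CCR7 is the chemokine receptor that brings T cells into lymph nodes and T cell zones through the ligands CCL19 and CCL21. S1PR1 reads the sphingosine 1-phosphate gradient that draws T cells out of lymphoid tissue into blood and lymph, and S1PR4 is a second receptor of the same lipid on lymphocytes. CD69, an early activation antigen, binds S1PR1 and removes it from the cell surface, and so holds cells in tissue. RGS1 and RGS2 switch off G proteins and so shorten the signals of receptors coupled to them, and RGS2 is best known for those coupled to Gq. Transcription of Ccr7 and S1pr1 is high in naive T cells, where FOXO1 and KLF2 drive one or both, and it falls after activation.

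In the RefSeq annotation of GRCm38.p6, Rgs2 lies on chromosome 1 at chr1:143999338-144004149 and Rgs1 at chr1:144244669-144249104, with 241 kb between them. S1pr1 lies at chr3:115710433-115715055, Cd69 at chr6:129267324-129275375, S1pr4 at chr10:81497745-81500137 and Ccr7 at chr11:99144199-99155077. The identifiers in the matrices are ENSMUSG00000026360 for Rgs2, ENSMUSG00000026358 for Rgs1, ENSMUSG00000045092 for S1pr1, ENSMUSG00000030156 for Cd69, ENSMUSG00000044199 for S1pr4 and ENSMUSG00000037944 for Ccr7. RefSeq promoter sequence was matched for 2 of the 6 members, Rgs2 and S1pr4. The stretch of 250 bases before the start of Rgs2 (chr1:144004150-144004399, minus strand, GRCm38.p6) is shown because Rgs2 had the lowest adjusted p of the 6 members between kidney and spleen. Capitals mark both matches to CGTCA or its reverse complement TGACG, the core of the cAMP response element, with 180 and 62 bases between each match and the start.
Rgs2: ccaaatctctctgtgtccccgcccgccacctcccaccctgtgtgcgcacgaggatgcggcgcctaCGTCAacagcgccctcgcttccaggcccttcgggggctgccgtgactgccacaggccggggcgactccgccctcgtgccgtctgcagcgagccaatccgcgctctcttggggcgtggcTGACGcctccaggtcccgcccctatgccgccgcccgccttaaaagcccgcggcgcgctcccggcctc
At least 1 match to CGTCA on either strand stood in 17.8% of 32851 RefSeq promoter windows of the same length, and 2 or more stood in 3.90%. The same window of S1pr4 held no match. CACCC, the core that KLF factors bind, had 1 match in each of the Rgs2 and S1pr4 windows and at least 1 in 52.0% of all windows, and TGANTCA, the AP-1 site, had none in either and at least 1 in 6.75% of all. Such matches are letters in a window and were not tested as binding sites.

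The 10 sums held 219 to 2386 cells (13337 in all, 4979 from kidney and 8358 from spleen) and 900068 to 10102765 UMIs, with a median of 3187 to 3644.5 UMIs per cell. No barcode was shared between any of the 45 pairs of these blocks. The T cell genes Cd3e, Cd3d, Cd3g, Cd4, Trbc2 and Trac summed to 3086 to 4042 CPM (UMI counts relative to the library total, scaled by TMM, edgeR's correction for composition) in kidney and 3393 to 4494 in spleen, so T cell genes were present in every sum. Ezh2 itself stood at 56.7 to 70.9 CPM (of library totals) in kidney KO sums against 83.0 to 154 in WT, and at 52.3 and 56.1 in spleen KO sums against 77.9 to 179 in WT. The deleted exons are not given in the labels and 5′ libraries read the start of a transcript, so this is no check of the deletion. The 3 WT mice were unlike: cells of a cytotoxic-like class made up 5.28% of the WT1 spleen, 67.4% of the WT2 spleen and 44.3% of the WT3 spleen. At a finer clustering these shares were 15.4%, 67.8% and 44.8%. Results between genotypes are therefore also given without WT1. The edgeR p-values between genotypes measure the spread between these 5 mice. Those of the reported fit between organs measure the spread over the 10 sums, with the organs of a mouse taken as independent.

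**Figure D1:**
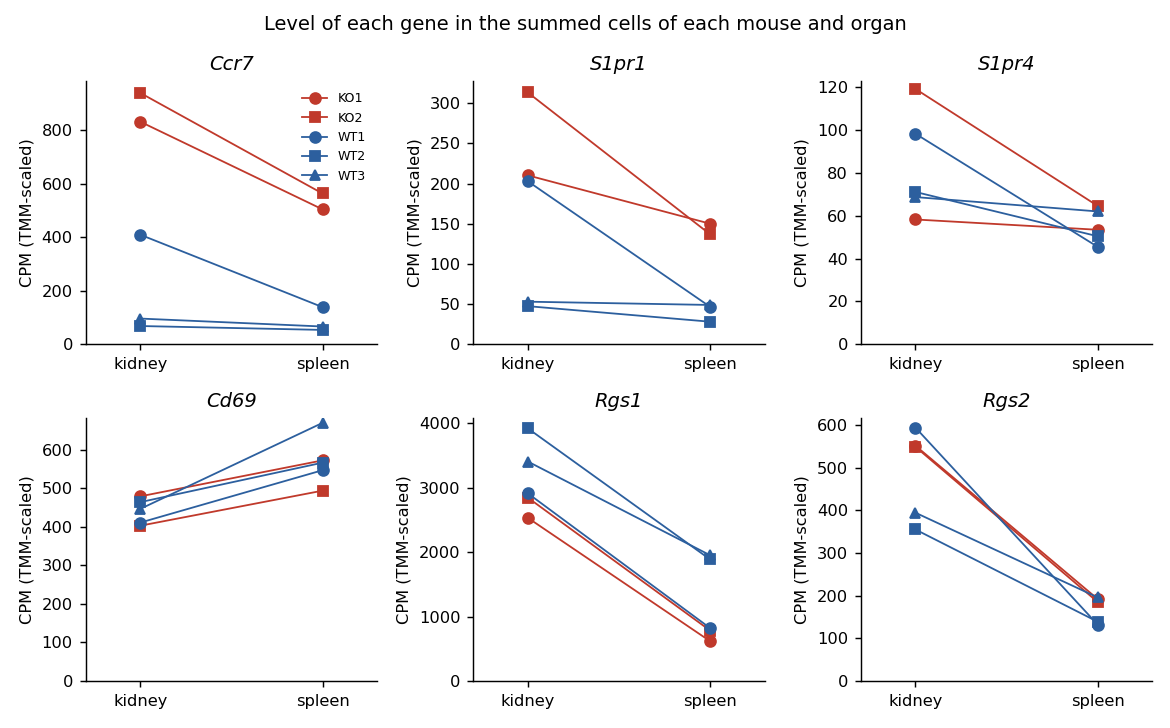
Level of each of the 6 genes (vertical axes, CPM after TMM scaling, from 0) in the summed cells of kidney and spleen (horizontal axes), with a line for each of the 2 KO mice (red) and 3 WT mice (blue). Rgs1, Rgs2, Ccr7, S1pr1 and S1pr4 slope down from kidney to spleen in 5 of 5 mice and Cd69 slopes up in 5 of 5.

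Kidney CD4+ T cells carried more Rgs2 and Rgs1 and less Cd69 than spleen cells of the same mice. Rgs2 was higher by 1.54 ± 0.16 on the log2 scale (SE) and Rgs1 by 1.46 ± 0.25, while Cd69 was lower by a log2 fold change of -0.37 ± 0.09. Ccr7, S1pr1 and S1pr4 were also higher in kidney in 5 of 5 mice. They passed edgeR's test when the mouse was kept as a block, but not in the reported fit, which did not pair the organs of a mouse. DESeq2 without the block called S1pr1 and S1pr4 as well (adjusted p = 0.0124 and 0.0196), with 23.2% of all genes called. In all, 3 of the 6 members passed an adjusted p of 0.05 (edgeR's quasi-likelihood test with genotype as covariate, Benjamini-Hochberg over 12072 genes), against a background of 21.7% of all genes tested, 12.1% higher and 9.64% lower in kidney. Of all genes tested, 19% were higher in kidney in all 5 mice and 19.5% lower in all 5. The share of all genes whose organs did not overlap, as given below for Rgs2, Rgs1 and Cd69, was not counted. With library totals in place of TMM, 983 genes were higher and 2211 lower, against 1460 and 1164, the median over all genes moved from -0.04 to -0.19, and the 6 members kept their signs. All 6 members passed the filter on low counts here and in the comparisons of genotypes.

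Rgs2, a regulator best known for turning off Gq-coupled signals, stood in kidney at 551 and 549 CPM in the KO mice and 594, 355 and 394 CPM in the WT mice. In spleen it stood at 192 and 185 CPM in KO and at 132, 138 and 196 CPM in WT. The organs did not overlap: the lowest kidney was above the highest spleen, and kidney was 2.02 to 4.51 times spleen within a mouse. The adjusted p was 0.000149 (edgeR).

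Rgs1, a GTPase-activating protein for Gi and Gq that dampens chemokine receptor signals, stood in kidney at 2532 and 2846 CPM in the KO mice and 2913, 3922 and 3407 CPM in the WT mice. In spleen it stood at 617 and 782 CPM in KO and at 820, 1886 and 1951 CPM in WT. Every kidney was above every spleen, and the spread between mice was wide in spleen (mean 1211 ± 651 CPM, SD, n = 5 mice) against kidney (3124 ± 545 CPM). The adjusted p was 0.0028 (edgeR).

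Cd69 stood in kidney at 479 and 402 CPM in the KO mice and 410, 463 and 446 CPM in the WT mice, and in spleen at 572, 493, 546, 566 and 669 CPM. No kidney reached the lowest spleen, and the ratio of kidney to spleen within a mouse ran from 0.667 to 0.837. The adjusted p was 0.0162 (edgeR), and it was 0.0544 without WT2 and 0.0693 without WT3. Cd69 belongs to the genes that activation switches on within minutes to hours, and a list of such genes is described below.

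Ccr7, the homing receptor, stood in kidney at 833 and 940 CPM in the KO mice and 410, 68.1 and 96.0 CPM in the WT mice, and in spleen at 505, 564, 139, 53.5 and 66.2 CPM. The mice spread more than the organs did, and every mouse was higher in kidney, by 1.27 to 2.95 times. The log2 fold change was 0.98 ± 0.46 (edgeR adjusted p = 0.151) with genotype as covariate, and 0.80 ± 0.15 (adjusted p = 0.0049) with the mouse as a block. Without WT1 it was 0.59 (edgeR adjusted p = 0.0083).

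S1pr1, the egress receptor, stood in kidney at 210 and 313 CPM in the KO mice and 203, 47.4 and 53.0 CPM in the WT mice, and in spleen at 150, 137, 46.5, 28.0 and 48.9 CPM. The organs overlapped, with WT2 and WT3 kidneys below both KO spleens, yet each mouse was higher in kidney, by 1.08 times in WT3 to 4.36 times in WT1. The log2 fold change was 1.12 ± 0.38 (edgeR adjusted p = 0.0604), and 0.96 ± 0.25 (adjusted p = 0.0175) with the mouse as a block. Without WT1 it was 0.61 (edgeR adjusted p = 0.0403).

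S1pr4 stood in kidney at 58.3 and 119 CPM in the KO mice and 98.4, 71.2 and 68.8 CPM in the WT mice, and in spleen at 53.5, 64.6, 45.5, 50.4 and 62.1 CPM. The organs overlapped through KO1, whose kidney lay below the spleens of KO2 and WT3. The log2 fold change was 0.57 ± 0.19 (edgeR adjusted p = 0.0511), and 0.56 ± 0.15 (adjusted p = 0.0197) with the mouse as a block. Without KO1 the log2 fold change was 0.67. KO1 had the lowest ratio of kidney to spleen (1.09), so a rise follows from that choice and is no check of the result. So the 6 members were all past the threshold in the blocked fit, in which 30.8% of all genes passed. Of the organ fits with 1 mouse left out, only that without KO1 is given here for S1pr4. For Ccr7 and S1pr1 only that without WT1 is given, so whether their calls hold with another mouse left out is not shown here.

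Preparation differed between the organs, and genes that answer to dissociation and to activation moved in both directions with it. Of 18 such genes, 6 were higher and 4 lower in kidney, with a median log2 fold change of 0.28 against -0.04 over all genes tested. Nr4a3 (2.11 ± 0.17), Atf3 (1.54 ± 0.27), Nr4a2 (1.12 ± 0.16), Nr4a1 (1.05 ± 0.20), Fosb (0.97 ± 0.21) and Jund (0.79 ± 0.16) were higher. Egr2 (-1.64 ± 0.29), Jun (-1.61 ± 0.37), Fos (-1.40 ± 0.22) and Dusp1 (-1.03 ± 0.16) were lower, as Cd69 was. Junb, with Jund the most abundant of the list, did not pass (0.22 ± 0.14, edgeR adjusted p = 0.304). The summed level of the list overlapped between the organs (15368 to 20602 CPM in kidney, 13254 to 24384 in spleen). The part of tissue preparation in the organ differences was not tested, and each organ was prepared in 1 way, so organ and preparation cannot be told apart.

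Genes of other cells also moved with the organ. The CD8 T cell genes Cd8a and Cd8b1 both rose in kidney (2.16 ± 0.36 and 1.40 ± 0.24, edgeR adjusted p = 0.0024 and 0.0030) and summed to 25.7 to 188 CPM there against 7.71 to 59.6 in spleen. Of 8 myeloid genes, 4 of 7 tested were higher in kidney, and the list summed to 156 to 229 CPM against 105 to 206 in spleen. Kidney tubule genes summed to 668 CPM in the WT3 kidney, 61.7 in the KO1 spleen and at most 48.0 elsewhere, and no tubule gene was at 0 in every sum. With the clusters led by such genes left out, the log2 fold changes were 1.58 for Rgs2, 1.5 for Rgs1, -0.32 for Cd69, 1.21 for S1pr1, 0.64 for S1pr4 and 1.03 for Ccr7, and S1pr1 and S1pr4 then passed (edgeR adjusted p = 0.0484 and 0.0362). In summed cells, fewer cells that express a gene and less RNA per cell cannot be told apart.

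The share of cells in which a gene was seen separates part of this, and was taken after each cell was thinned to 2000 UMIs (74 of 936 kidney KO cells, 410 of 4043 kidney WT cells, 251 of 2904 spleen KO cells and 571 of 5454 spleen WT cells were shallower and left out). Rgs1 was seen in 88.0% ± 5.72 of kidney cells and 60.8% ± 17.0 of spleen cells (SD, n = 5 mice). Rgs2 was seen in 47.2% ± 5.47 and 24.1% ± 1.62. Cd69 was seen in 47.3% ± 4.18 of kidney cells and 56.5% ± 3.44 of spleen cells. Each of these 3 differences had the same sign in 5 of 5 mice, and the exact permutation test over pairs gave p = 0.063, the smallest that 5 pairs allow, and 0.125 after adjustment over the 6 members. The share of Ccr7 (24.3% ± 17.6 and 23.3% ± 18.3; exact p = 0.875, adjusted 0.875) was higher in kidney in only 2 of 5 mice, unlike its summed level. S1pr1 (20.2% ± 13.0 and 14.4% ± 9.00; exact p = 0.25, adjusted 0.3) was higher in kidney in 3 of 5 mice, and S1pr4 (12.4% ± 2.03 and 10.1% ± 1.74; exact p = 0.125, adjusted 0.1875) in 4 of 5.

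As a gauge of free RNA, the 12 cells of the cluster led by kidney tubule genes (9 with kidney and 3 with spleen barcodes), thinned from a median of 10328.5 UMIs, were counted in the same way. None had Ccr7, S1pr1 or S1pr4, which allows a share of up to 25%. Cd69 was seen in 3 of the 12 (25%, Wilson 95% interval 8.89% to 53.2%), and Rgs1 and Rgs2 in 1 each (8.33%, interval 1.49% to 35.4%). The shares of Rgs1 in all 10 sums and of Rgs2 in the 5 kidneys lay above the upper end of these intervals, while those of Cd69 in the 5 kidneys and the KO2 spleen and of Rgs2 in the 5 spleens lay inside them. All WT shares of Ccr7, all shares of S1pr4, and those of S1pr1 in the WT2 and WT3 kidneys, the KO2 spleen and the WT spleens lay under the limit of 25%. With so few cells, these shares were not told apart from background, and the gauge in either organ alone rests on fewer still. The tubule cells were also deeper than the T cells before thinning. The same amount of free RNA would be a smaller part of their UMIs, so the gauge can be too low for T cells. Without thinning, the mean shares in kidney and spleen were 90.4% and 69.5% for Rgs1, 58.5% and 34.6% for Rgs2 and 62.1% and 69.2% for Cd69.

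**Figure D2:**
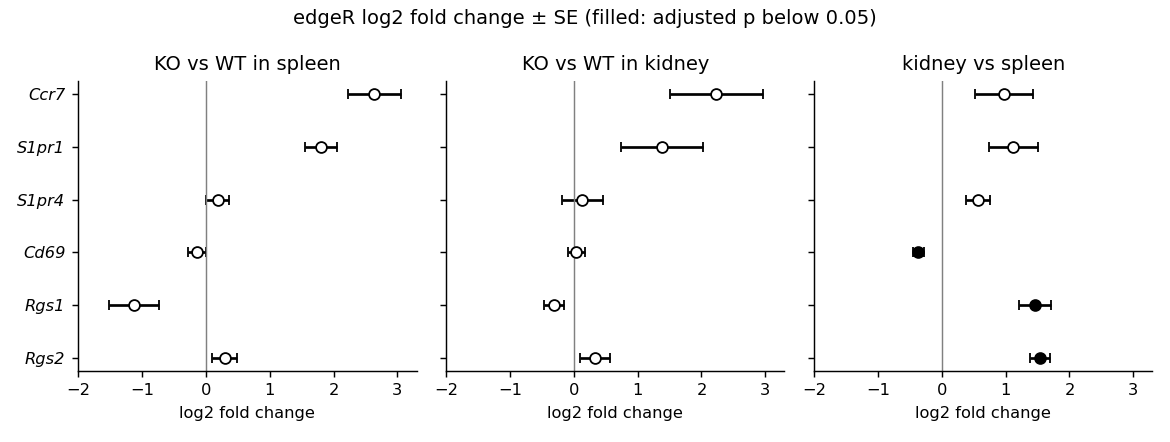
Log2 fold change of each gene (points; bars are ± SE) for KO over WT in spleen, KO over WT in kidney, and kidney over spleen, from edgeR. Filled points passed an adjusted p of 0.05: Rgs2, Rgs1 and Cd69 between the organs, and none between the genotypes.

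Between genotypes in spleen, the homing receptor Ccr7 and the egress receptor S1pr1 stood higher in KO than in WT and Rgs1 lower, but none of the 6 members passed the threshold. Ccr7 was 534 CPM on average in KO spleens and 86.1 in WT spleens (log2 fold change 2.64 ± 0.41, edgeR adjusted p = 0.0727). S1pr1 averaged 143 and 41.2 CPM (1.81 ± 0.25, adjusted p = 0.0648), and Rgs1 699 and 1552 CPM (-1.13 ± 0.39, adjusted p = 0.231). Of all 11698 genes tested, 0.239% were called, 0.205% higher and 0.0342% lower in KO. At an unadjusted p below 0.05 there were 3 of 6 members (16.9% of all genes), and DESeq2 called Ccr7, S1pr1 and Rgs1 at an adjusted p below 0.05 (5.96% of all genes). S1pr4 (0.19 ± 0.18), Cd69 (-0.14 ± 0.14) and Rgs2 (0.30 ± 0.20) gave edgeR adjusted p-values of 0.646, 0.671 and 0.496, and their groups overlapped.

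Both KO spleens lay above all 3 WT spleens for Ccr7 and S1pr1, which held for 18.5% of all genes tested, and below them for Rgs1, which held for 20.6%. WT1 lay nearer to the KO mice than WT2 and WT3 did for Ccr7 and Rgs1, so leaving it out widens both differences. Leaving out WT2 or WT3 instead gave 0 called genes. Without WT1, edgeR called 2254 genes in spleen (19.9%), among them Ccr7 (3.16, adjusted p = 0.000261), S1pr1 (1.88, adjusted p = 0.0031) and Rgs1 (-1.44, adjusted p = 0.0012).

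In kidney the same 3 genes leaned the same way and none passed. Ccr7 averaged 887 CPM in KO kidneys and 191 in WT kidneys (log2 fold change 2.23 ± 0.72, edgeR adjusted p = 0.467), and S1pr1 averaged 262 and 101 CPM (1.38 ± 0.64, adjusted p = 0.553). Rgs1 averaged 2689 and 3414 CPM (-0.31 ± 0.16, adjusted p = 0.582). No gene of 10486 was called (0%), 966 (9.21%) had an unadjusted p below 0.05, among them 1 member (Ccr7), and DESeq2 called 58 genes (0.553%) and 0 members. KO kidneys lay above all WT kidneys for Ccr7 and S1pr1 (12.9% of all genes tested) and below them for Rgs1 (17.6%). Leaving out the WT2 or WT3 kidney gave 0 called genes. Without the WT1 kidney, edgeR called 739 genes (7.25%), among them Ccr7 (3.49, adjusted p = 0.000519), S1pr1 (2.41, adjusted p = 0.0026) and Rgs2 (0.60, adjusted p = 0.0219), while Rgs1 had -0.40 (adjusted p = 0.059).

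S1pr4 (0.14 ± 0.32, edgeR adjusted p = 0.943), Cd69 (0.04 ± 0.13, adjusted p = 0.969) and Rgs2 (0.33 ± 0.23, adjusted p = 0.67) overlapped between KO and WT kidneys. The sign of S1pr4 turned without KO2 and that of Cd69 without KO1, with library totals in place of TMM and with no filter on low counts. The difference between the KO effects of the organs was tested itself: none of the 6 members passed (edgeR adjusted p of 1.00 for each; no member had an unadjusted p below 0.05, against 4.03% of all genes, and DESeq2 called none, against 0.0497%), and edgeR called 0% of 12072 genes. Rgs1 had the largest difference of the 6, 0.80 ± 0.45.

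By share of cells after thinning, Ccr7 was seen in 44.5% and 39.3% of cells of the KO kidneys and in 23.9%, 4.81% and 9.17% of cells of the WT kidneys. In spleen it was seen in 45.0% and 40.6% of KO cells and in 16.5%, 5.94% and 8.41% of WT cells. The groups did not overlap in either organ, and the exact permutation test gave p = 0.1 in each, the smallest that 2 against 3 mice allow (adjusted 0.4 in kidney and 0.3 in spleen over the 6 members). How many of all genes separate the genotypes by share of cells was not counted. S1pr1 was seen in 28.7% and 32.8% of KO kidney cells against 27.1%, 5.94% and 6.31% of WT, so that WT1 stood beside the KO mice (exact p = 0.2, adjusted 0.4). In spleen S1pr1 was seen in 25.2% and 22.9% of KO cells against 9.72%, 6.05% and 7.89% of WT cells (exact p = 0.1, adjusted 0.3).

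Naive T cells, which are known for high Ccr7 and S1pr1, moved with the genotype. A naive-like class made up 51.4% and 36.0% of the KO spleens and 1.97%, 2.06% and 0.699% of the WT spleens. In kidney it made up 12.6% and 18.7% of KO cells and 1.10%, 0.273% and 0.106% of WT cells. The 8 naive marker genes, none of which is a member, summed to 2559 to 3601 CPM in KO spleens against 451 to 668 in WT spleens, and to 1649 to 1826 against 485 to 657 in kidney. With naive-like cells left out, the log2 fold change in spleen was 1.22 ± 0.51 for Ccr7, 0.88 ± 0.29 for S1pr1 and -0.71 ± 0.37 for Rgs1 (edgeR adjusted p = 0.499, 0.475 and 0.555). In kidney it was 1.70 ± 0.73 for Ccr7 and 1.04 ± 0.64 for S1pr1 (adjusted p = 0.67 and 0.709). Naive-like cells still left in other clusters were not tested.

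CD8 T cell genes moved with genotype too, at 172 to 188 CPM in KO kidneys against 25.7 to 44.7 in WT kidneys and at 26.7 to 59.6 against 7.71 to 16.2 in spleen. The 9 cytotoxic genes ran the other way (1662 to 2689 CPM in KO spleens, 6773 to 34096 in WT spleens). Their part in the member differences was not tested.

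**Figure D3:**
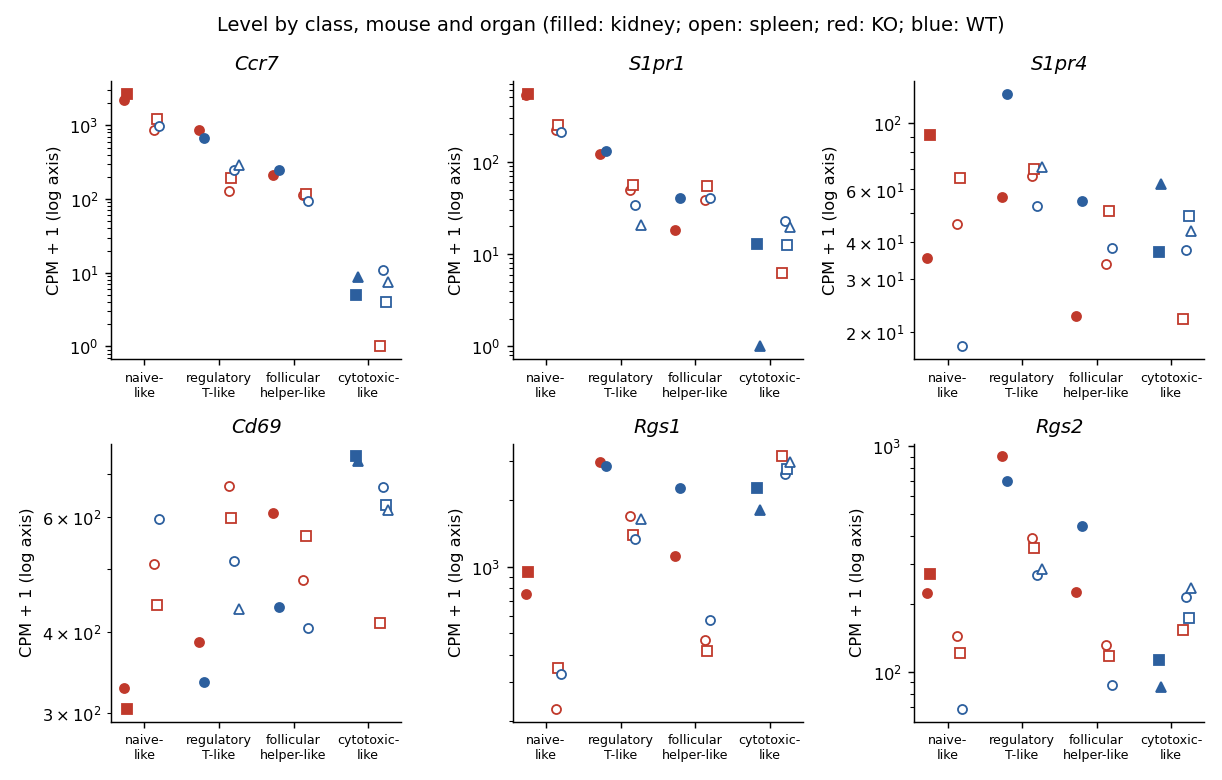
Level of each gene (vertical axes, CPM of library totals plus 1, log scale) in 4 classes of cells, for each mouse with at least 30 cells of the class; filled symbols are kidney, open symbols spleen, red KO and blue WT, with circles, squares and triangles for mouse numbers 1, 2 and 3. Ccr7 and S1pr1 fall from the naive-like to the cytotoxic-like class, and kidney lies above spleen for Rgs1 and Rgs2 except in the cytotoxic-like class.

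The classes came from clustering without the member, list and marker genes, and levels in them are a description with no test. Ccr7 and S1pr1 had nearly the same order of classes. Ccr7 averaged 2439 ± 352 CPM (SD, n = 2 mice) in naive-like cells of kidney, 767 ± 132 (n = 2) in regulatory T-like cells, 227 ± 27.1 (n = 2) in follicular helper-like cells and 5.85 ± 2.62 (n = 2) in cytotoxic-like cells. In spleen the means were 1020 ± 184 (n = 3), 212 ± 69.7 (n = 4), 107 ± 12.8 (n = 3) and 4.79 ± 4.23 CPM (n = 4). All neighbours in this order lay apart by more than their spread in both organs. The kidney means of every gene rest on KO1 and KO2 for naive-like cells and on WT2 and WT3 for cytotoxic-like cells. Those of regulatory T-like and follicular helper-like cells rest on KO1 and WT1. Class and genotype therefore cannot be told apart between naive-like and cytotoxic-like cells of kidney.

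S1pr1 averaged 539 ± 12.9 CPM in naive-like cells of kidney, 125 ± 6.09 in regulatory T-like, 28.4 ± 15.6 in follicular helper-like and 5.99 ± 8.48 in cytotoxic-like cells. In spleen it averaged 229 ± 21.7, 39.3 ± 16.0, 43.8 ± 8.88 and 14.4 ± 7.45 CPM, so that regulatory T-like and follicular helper-like cells did not differ there beyond their spread. Most naive-like cells of kidney came from another cluster than those of spleen, and Ccr7 was among the 10 leading genes of the kidney cluster. Within both KO mice, naive-like cells of kidney had 1.36 and 1.14 more Ccr7 (log2 ratio of CPM) and 1.25 and 1.11 more S1pr1 than those of spleen.

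Rgs1 ran in nearly the opposite order in spleen: 299 ± 64.3 CPM in naive-like, 484 ± 80.8 in follicular helper-like, 1514 ± 179 in regulatory T-like and 2873 ± 234 in cytotoxic-like cells. In kidney, Rgs1 averaged 849 ± 140 CPM in naive-like, 1694 ± 819 in follicular helper-like, 2041 ± 329 in cytotoxic-like and 2907 ± 92.7 in regulatory T-like cells, and the follicular helper-like and cytotoxic-like values did not differ beyond their spread. Regulatory T-like cells also had the highest Rgs2 of the 4 classes, 801 ± 141 CPM in kidney and 325 ± 58.4 in spleen. Ighm, a B cell gene, was among the 10 leading genes of that class beside Foxp3 and Ikzf2. At a finer clustering, kidney regulatory T-like cells averaged 72.1 CPM of S1pr1 and 965 of Ccr7.

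The kidney excess of Rgs1 and Rgs2 was seen inside classes as well as in the sums. It was present within the mice that could be paired for naive-like (KO1, KO2), regulatory T-like (KO1, WT1) and follicular helper-like cells (KO1, WT1), by 0.81 to 1.99 for Rgs1 and by 0.63 to 2.35 for Rgs2 (log2 ratio of CPM). Cytotoxic-like cells of WT2 and WT3 went the other way, with -0.28 and -0.71 for Rgs1 and -0.61 and -1.46 for Rgs2. Cd69 was lower in kidney in naive-like (-0.63 and -0.53) and regulatory T-like cells (-0.80 and -0.62), and slightly higher in follicular helper-like (0.34 and 0.10) and cytotoxic-like cells (0.25 and 0.25). The difference between classes was not tested.

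Most kidney cells fell in clusters with no class name, and these too split by the members. The largest kidney cluster, of 2100 cells and led by Esm1, Ctla2a and Nrarp, had 4062 ± 226 CPM of Rgs1, 54.3 ± 16.8 of Ccr7 and 31.0 ± 2.79 of S1pr1 (SD, n = 3 WT mice with at least 30 cells). The next, of 1686 cells and led by Ramp3, Ifitm2 and Neurl3, had 2815 ± 293 CPM of Rgs1, 435 ± 176 of Ccr7, 232 ± 56.6 of S1pr1 and 602 ± 85.3 of Rgs2 (n = 5 mice). The kidney thus held clusters low and clusters high in both receptors.

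**Figure D4:**
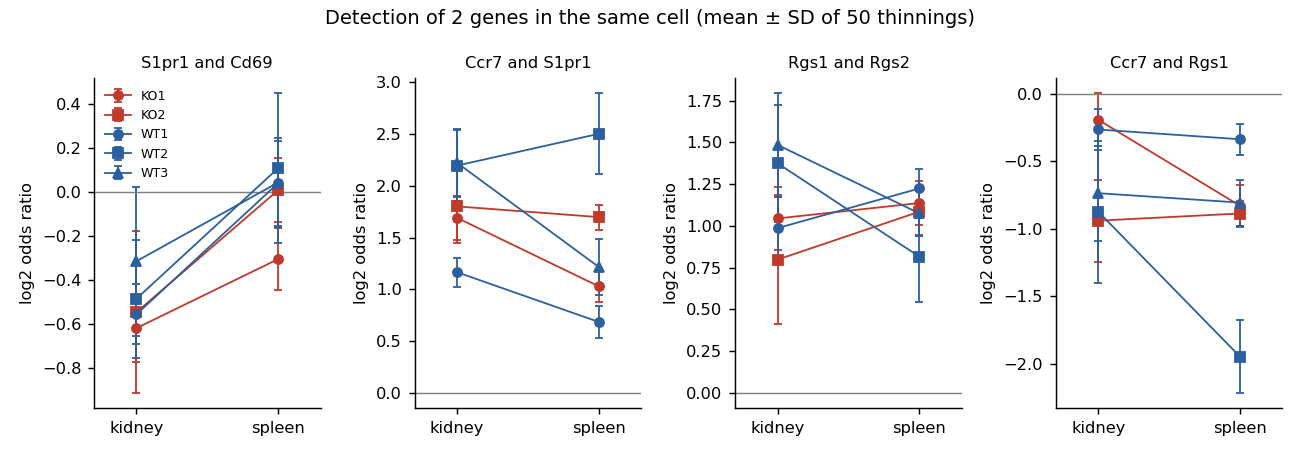
Log2 odds ratio of finding 2 genes in the same cell (vertical axes; 0 means no association) in kidney and spleen for each of 2 KO (red) and 3 WT (blue) mice, as the mean ± SD of 50 thinnings to 2000 UMIs. S1pr1 and Cd69 lie below 0 in 5 of 5 kidneys, and Ccr7 with S1pr1 and Rgs1 with Rgs2 lie above 0 in all 10 sums.

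CD69 protein removes S1PR1 protein, so the 2 transcripts were set against each other cell by cell. In kidney they were found together less often than independence would give in 5 of 5 mice, and in spleen they were close to independent. The log2 odds ratio after 1 thinning was -0.92 and -0.43 in the KO kidneys and -0.42, -0.76 and -0.05 in the WT kidneys. For spleen it was -0.35, 0.04, 0.02, -0.28 and 0.04. Kidney was lower than spleen in 5 of 5 mice, by -0.41 on average (exact permutation p = 0.063, the smallest that 5 pairs allow).

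A single thinning moved these ratios, since few cells carry S1pr1, and the mean of 50 thinnings was added after this was seen. It gave -0.62, -0.55, -0.56, -0.48 and -0.31 in kidney and -0.30, 0.01, 0.04, 0.11 and 0.04 in spleen, a difference of -0.48 (exact permutation p = 0.063). In these means, 39.1% of S1pr1+ cells and 48.4% of S1pr1- cells of the KO2 kidney had Cd69, and 37.0% and 46.3% of the WT1 kidney. In the WT1 spleen the shares were 57.0% and 56.3%. At 1000 UMIs a cell the difference between organs was 0.01. After 1 thinning to 2000 UMIs, KO and WT did not stand apart (-0.26 in kidney, exact permutation p = 0.4, and -0.08 in spleen, p = 0.7, smallest possible p 0.1). In the means of 50 thinnings the genotypes overlapped in kidney, but both KO spleens lay below all WT spleens. There KO2 (0.01) and WT1 (0.04) differed by less than their SD over thinnings (0.14 and 0.19).

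Of the 15 pairs of members, described over the same 50 thinnings, Ccr7 with S1pr1 was above 0 in all 10 sums (mean 1.81 in kidney and 1.43 in spleen), and so was Rgs1 with Rgs2 (1.14 and 1.07) and S1pr1 with S1pr4 (0.73 and 0.58). Rgs1 lay below 0 with Ccr7 (-0.60 and -0.96) and with S1pr1 (-0.45 and -0.79) in all 10 sums. With S1pr1 it was near 0 in the WT1 kidney (-0.02, SD over thinnings 0.19) and the KO2 kidney (-0.14, SD 0.47). After 1 thinning, S1pr1 with Rgs1 was above 0 in 2 kidneys and 1 spleen. Ccr7 with Rgs2 had no common sign over the 50 thinnings: it lay above 0 in 4 of 5 kidneys and below 0 in 5 of 5 spleens. S1pr4 and Cd69 lay below 0 in 5 of 5 kidneys (-0.47 on average) and near 0 in spleen (0.04). These are ratios over cells of a mouse that share depth and class, and no p is given for them.

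Of 12 other receptors and adhesion molecules for entry and positioning, 4 were higher in kidney and 1 lower (median log2 fold change 0.17 against -0.04 over all genes tested). The chemokine receptor Cxcr4 rose by 1.76 ± 0.15, the lysophospholipid receptor P2ry10 by 1.43 ± 0.15, the oxysterol receptor Gpr183 by 0.82 ± 0.18 and the selectin ligand Selplg by 0.56 ± 0.15, and the adhesion molecule Icam2 changed by -0.67 ± 0.15 (edgeR adjusted p from 7.56e-05 to 0.0237). Of the egress list of 14 genes, 10 were tested and 2 rose: Sphk2, a sphingosine kinase, by 1.35 ± 0.16 and the transcription factor Klf3 by 0.85 ± 0.20 (median 0.15). Klf2, the activator of S1pr1, and Il7r had the highest levels of that list and did not pass (-0.12 ± 0.19 and 0.81 ± 0.47, edgeR adjusted p = 0.703 and 0.244).

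Among 13 genes of Gi signalling and motility, 4 were higher and 1 lower in kidney (median -0.02). Gna13, which encodes a G protein that can restrain migration, rose by 1.67 ± 0.16, and Gnai3, Gnb1 and Stk4 passed as well, with Gnai3 at 0.47 ± 0.08 and Gnb1 at 0.42 ± 0.08. Coro1a, an actin regulator needed for T cell egress, changed by -0.31 ± 0.08, and Rac2 did not pass (-0.07 ± 0.07, edgeR adjusted p = 0.498). Of the other RGS genes, 7 of 8 were tested, none was higher and Rgs19 was lower (-0.48 ± 0.09, edgeR adjusted p = 0.0048), with a median of -0.48. Rgs16 and Rgs10, the most abundant of these, did not pass (0.45 ± 0.26 and 0.14 ± 0.41, adjusted p = 0.233 and 0.849).

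Rgs1 and Rgs2 are neighbours in a cluster of RGS genes on chromosome 1. Of the other RGS genes there, Rgs13, Rgs18 and Rgs21 had 1, 8 and 0 UMIs over all 10 sums and were not tested. Within 1 Mb to either side, 4 other protein-coding genes were tested, and of these Uchl5 passed (0.38, edgeR adjusted p = 0.0093) while Cdc73, Glrx2 and Ro60 did not.

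Of 12 genes of tissue retention and residency, 11 were tested, 6 were higher in kidney and none lower, with a median of 0.85. They were the collagen-binding integrin Itga1 (2.88 ± 0.45), Cdh1 (3.83 ± 0.53), the chemokine receptor Cxcr6 (2.44 ± 0.22), Litaf (1.15 ± 0.18) and the transcription factors Bhlhe40 (1.12 ± 0.19) and Runx3 (0.85 ± 0.22), with edgeR adjusted p from 7.56e-05 to 0.0202. Across these lists and that of activation and dissociation, with T cell identity genes, all 31 called genes kept their sign with DESeq2 and with library totals. Cd69, the antigen often used with Itgae to mark resident cells, moved against this list. Of the 6 T cell identity genes, Cd3d and Trac were lower in kidney (-0.21 ± 0.06 and -0.26 ± 0.07, edgeR adjusted p = 0.0407 and 0.0335) and Cd3e and Cd3g did not pass (-0.09 ± 0.06 and -0.16 ± 0.08).

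Between genotypes, edgeR called none of the genes of these 7 lists: 0 of 77 tested in spleen and 0 of 75 in kidney. In spleen 26 had an unadjusted p below 0.05, against 16.9% of all genes, and DESeq2 called 18, against 5.96%. In kidney 22 had an unadjusted p below 0.05, against 9.21% of all genes, and DESeq2 called 3, against 0.553%. The DESeq2 calls in kidney were Klf2, Rgs10 and Zfp36. Klf2 was higher in KO by 0.94 ± 0.23 in kidney and 0.69 ± 0.29 in spleen (edgeR adjusted p = 0.457 and 0.313).

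The genes whose log2 CPM most resembled each member over the 10 sums were named by their Pearson r, a description over sums that share mouse, organ and depth. Ccr7 was followed by Vav3 (0.99), Rab3ip (0.98) and Trib2 (0.98), S1pr1 by Imp3, Tmem64 and Gm45552 (0.97 each), and S1pr4 by Seh1l (0.94), Naip5 (0.93) and Etnk1 (0.93). Cd69 was followed by Gm45606 (0.96), Traf3ip2 (0.94) and Alg12 (0.93), Rgs1 by 1810037I17Rik, Pde7a and Nhlrc2 (0.99, 0.99 and 0.98), and Rgs2 by Ddx3x, Rhog and the second row named Ptp4a1 (0.99, 0.99 and 0.98). Among the members, Ccr7 and S1pr1 were the most alike (0.96), and Cd69 ran against Rgs2 (-0.80) and S1pr4 (-0.76).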

How the data were processed

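Whole UMI counts per gene and cell were deposited by the authors in 1 matrix per organ, with no normalization recorded. Per the file headers they came from Cell Ranger 7.1.0, and the submitters' processing notes name Seurat 5.0.1 and the mm10 (GRCm38) genome; other alignment settings were not given in the sources used here. Of 18 blocks of barcodes, 10 had a median above 0 for the UMIs of tags 9 and 10 together and were taken as the first day. Each of these was led by its own numbered antibody tag, while all 8 other blocks were led by tag 1. Numbers were joined to the mice and organs of the deposited key by its order, an assumption that the files bear out for organ only. Cells with at least 200 genes and under 10% mitochondrial UMIs were kept; no doublet caller was run. Counts were summed per mouse and organ and tested with edgeR 4.0.16 (TMM scaling, quasi-likelihood test, Benjamini-Hochberg, 0.05), with DESeq2 1.42.0 as an alternative. Levels are TMM-scaled CPM, and levels by class CPM of library totals. Both organs come from 1 animal, but the reported edgeR test between organs had genotype as covariate and did not pair the sums of a mouse. The mouse was a block in an alternative fit only. Shares and odds ratios were compared between organs within each mouse. Cells were clustered (igraph 0.11.9, Leiden, 2000 genes) and classes named from marker lists. Log2 odds ratios added 0.5 to each count. Intervals and floors cover counting error only.

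Members and lists were chosen with earlier results of these data known. The text names all 6 members, in each pathway list every gene that edgeR called and the 2 most abundant, and for each member the 3 genes of highest correlation; the genes within 1 Mb of Rgs1 and Rgs2 and Klf2 between genotypes were named after their values were seen. On simulated counts, edgeR found 96.5%, 86.5% and 96% of changes of 2 on the log2 scale among 11698, 10486 and 12072 genes, for KO against WT in spleen, in kidney and kidney against spleen. The simulated sums were independent, with the same dispersion for all genes and no mouse unlike the others. The WT mice here were unlike, so these percentages are a check of the code and not the power in these data. T cell receptor sequences were not used here.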

Additional observations from a re-analysis of the deposited data

Results flagged for a closer look

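Data outside the comparisons held the 6 genes too. The 8 blocks of the second day of the tag key list 17523 cells, but these are 2399 distinct barcodes repeated under several mice and both organs, so they belong to no mouse or organ here. In these 2399 cells, CPM of library totals was 888.6 for Ccr7, 272.7 for S1pr1, 70.9 for S1pr4, 510.5 for Cd69, 2164 for Rgs1 and 520.6 for Rgs2, from 681 UMIs of S1pr4 to 20793 of Rgs1. The log2 odds ratio of S1pr1 and Cd69 in the 2141 cells with at least 2000 UMIs was -0.75. The difference in KO effect between the organs passed for no member, and no member moved one way in every KO mouse and the other way in every WT mouse. Groups of 2 and 3 mice are too small for a test of single outlying samples.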

How the results depend on the processing

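Of the organ differences, Rgs1, Rgs2 and Cd69 kept their direction under every alternative run, and Rgs1 and Rgs2 stayed past the threshold. The genotype calls rested on few mice. In spleen, edgeR called 28 genes as reported, 697 were called by DESeq2, 340 with no low count filter and 0 without naive-like cells; leaving out 1 mouse gave 0 (KO1, KO2, WT2 or WT3 left out) to 2254 (without WT1). In kidney the reported count of 0 became 58 with DESeq2, 26 with no low count filter, 1 with library totals and 1 with stricter cell filters, and 0 to 739 with 1 mouse left out. Between the organs, leaving out 1 mouse gave 1350 (without KO1), 1398 (KO2), 1747 (WT2), 1606 (WT3) and 2696 genes (WT1) against 2624, and the mouse as replicate block gave 3715. For the difference of the KO effects the count of 0 became 6 with DESeq2, 4 with the mouse as replicate block and 0 to 1 with 1 mouse left out. The block changed the calls of Ccr7, S1pr1 and S1pr4 given above and no other member's call.

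Among the members, signs turned only for differences that were not called. In kidney KO against WT, Cd69 was -0.023 with library totals and -0.0075 with no low count filter, and ran from -0.10 to 0.14 with 1 mouse left out, as S1pr4 did from -0.43 to 0.61. For the difference of the KO effects, leaving out naive-like cells gave 0.45 for Ccr7, 0.13 for S1pr1 and -0.088 for Rgs2, and Rgs2 was -0.0070 with no low count filter and -0.015 with stricter cell filters. With 1 mouse left out, Ccr7 ran from -0.60 to 0.29, S1pr1 from -0.90 to 0.49, Rgs2 from -0.29 to 0.39 and S1pr4 from -0.47 to 0.27. The S1pr1 and Cd69 odds ratio differed between the organs by 0.014 at 1000 UMIs, and between genotypes in spleen by -0.53 without thinning. Another seed gave -0.18 percentage points for S1pr4 in spleen. The cause was not tested for any of these. After thinning, the highest share of Ccr7, S1pr1 or S1pr4 in the WT2 and WT3 sums was 11.7%, that of S1pr4 in the WT2 kidney. It was 20.0% without thinning, so these shares hold for the thinned depth only. All sums were thinned to the same depth, and the part of depth in the low shares of these mice was not tested.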
